A study of Mus musculus with 16 samples.

Results

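Mediator is the large coactivator complex that carries signals from DNA-bound transcription factors to RNA polymerase II, and its transcripts were examined here in mouse embryo fibroblasts (MEFs) with and without the SIMPL protein. The members are the 33 genes for Mediator subunits and for the kinase module that binds the complex, chosen by name, and all 33 were measured among 19938 genes on the arrays. They comprise 11 head genes, 9 middle genes, the scaffold gene Med14, 5 tail genes and 7 kinase module genes. SIMPL is encoded by Irak1bp1 and is a coactivator of p65, the RelA subunit of NF-κB. The study asked how SIMPL shapes the genes that TNFα induces, and it named MED1 and MED15 among proteins in SIMPL complexes from transfected human cells. It reported that complexes of SIMPL with MED1 formed after TNFα and required p65.

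RNA of proliferating MEFs from 4 groups, with 4 arrays each, was hybridised to the Affymetrix Mouse Gene 1.0 ST platform. The groups were SIMPL-/- MEFs (genotype label IRAK1BP1 KO) with recombinant human TNFα, untreated SIMPL-/- MEFs, littermate MEFs (genotype label WT) with the same TNFα, and untreated littermate MEFs. The TNFα dose was 10 ng/ml, and its length is 45 min in the array labels but 1 h in the methods of the study. All groups share the strain label C57Bl/6 x 129Sv. The methods describe 4 separate derivations of MEFs per genotype, each from 1 embryo, and neither the sex of the embryos nor a link between treated and untreated arrays of one embryo is given. The genotype and whatever else differed between those embryos and cultures cannot be told apart.

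The head and middle modules of Mediator contact RNA polymerase II, the tail receives many activators, and MED14 runs through the complex as its backbone. The kinase module holds the kinase CDK8 or its paralog CDK19, cyclin C, and MED12 and MED13 or their paralogs, and it docks reversibly and blocks the binding of polymerase. NF-κB, the factor that TNFα sends to the nucleus, has p65 as a main activating subunit, and p65 works through coactivators such as Mediator.

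For the members with a called TNFα response, Med29, Cdk8 and Med11, the 250 bases before the gene start are shown because NF-κB is the factor that TNFα activates. The sequences are those of RefSeq for GRCm38.p6, written 5′ to 3′ in the direction of the gene, and capitals mark a match to the κB consensus, the 10-base site of NF-κB, searched on both strands. Med29 lies at chr7:28392691-28392940 on the minus strand, Cdk8 at chr5:146231000-146231249 on the plus strand and Med11 at chr11:70451668-70451917 on the plus strand.
Med29: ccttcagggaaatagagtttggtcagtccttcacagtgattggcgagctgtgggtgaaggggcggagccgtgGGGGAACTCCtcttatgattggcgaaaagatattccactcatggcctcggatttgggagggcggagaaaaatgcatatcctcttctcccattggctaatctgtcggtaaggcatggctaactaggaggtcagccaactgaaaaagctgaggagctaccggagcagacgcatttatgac
Cdk8: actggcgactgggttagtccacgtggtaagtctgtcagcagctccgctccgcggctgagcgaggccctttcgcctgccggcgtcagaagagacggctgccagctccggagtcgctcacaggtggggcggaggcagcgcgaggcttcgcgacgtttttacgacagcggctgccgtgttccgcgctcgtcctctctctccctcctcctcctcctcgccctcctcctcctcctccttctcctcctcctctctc
Med11: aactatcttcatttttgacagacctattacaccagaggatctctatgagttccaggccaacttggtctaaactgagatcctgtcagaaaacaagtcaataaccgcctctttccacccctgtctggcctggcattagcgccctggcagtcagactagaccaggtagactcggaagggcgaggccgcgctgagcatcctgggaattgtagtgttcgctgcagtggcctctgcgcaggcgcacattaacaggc
The Med29 match lies 178 to 169 bases before the start on the strand of the gene. A window was found for 28 of the 33 members, and Med29 was the 1 member whose window held a match. Over all promoter windows of the same length, 1281 of 32851 (3.9%) held one. A match is a description of letters and not of binding.

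Values are the deposited log2 values, so a difference of 1 is a 2-fold change, and differences are given as log2 with the SE of the linear model. Irak1bp1 averaged 5.37 ± 0.24 with TNFα and 5.36 ± 0.19 untreated in SIMPL-/- MEFs, against 7.91 ± 0.18 and 8.09 ± 0.17 in littermate MEFs (SD, n = 4 arrays each), which fits the labels. Array medians ranged from 6.67 to 6.76. Of 14 measured fibroblast markers of 15 listed, 3 were higher and 8 lower in SIMPL-/- MEFs in both genotype comparisons, and their mean log2 value was 12.3 in both SIMPL-/- groups, against 12.5 and 12.6 in littermate MEFs with and without TNFα. All 21 measured myeloid markers of 22 listed were lower in SIMPL-/- MEFs in both comparisons, with median log2 differences of -2.53 with TNFα and -2.36 without it. Their summed linear level per array was 5088 to 5379 with TNFα and 4949 to 5458 untreated in SIMPL-/- MEFs, against 25142 to 33995 and 23830 to 30251 in littermate MEFs. Among 9 endothelial and epithelial markers, 3 were higher and 1 lower with TNFα, and 3 were higher and 0 lower without it. Of 5 measured lymphoid and erythroid markers, 0 were called with TNFα and 1 was higher without it. RMA values have no zero, so no marker can be called absent. Xist was lower in SIMPL-/- MEFs, by 1.42 with TNFα and 1.53 without it on the log2 scale, and the Y-linked Eif2s3y was higher, by 0.69 and 0.65. These markers moved with genotype, as did the Mediator genes below, and their part in the Mediator results was not tested. In such bulk RNA, fewer cells of a type and less RNA per cell cannot be told apart.

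**Figure D1:**
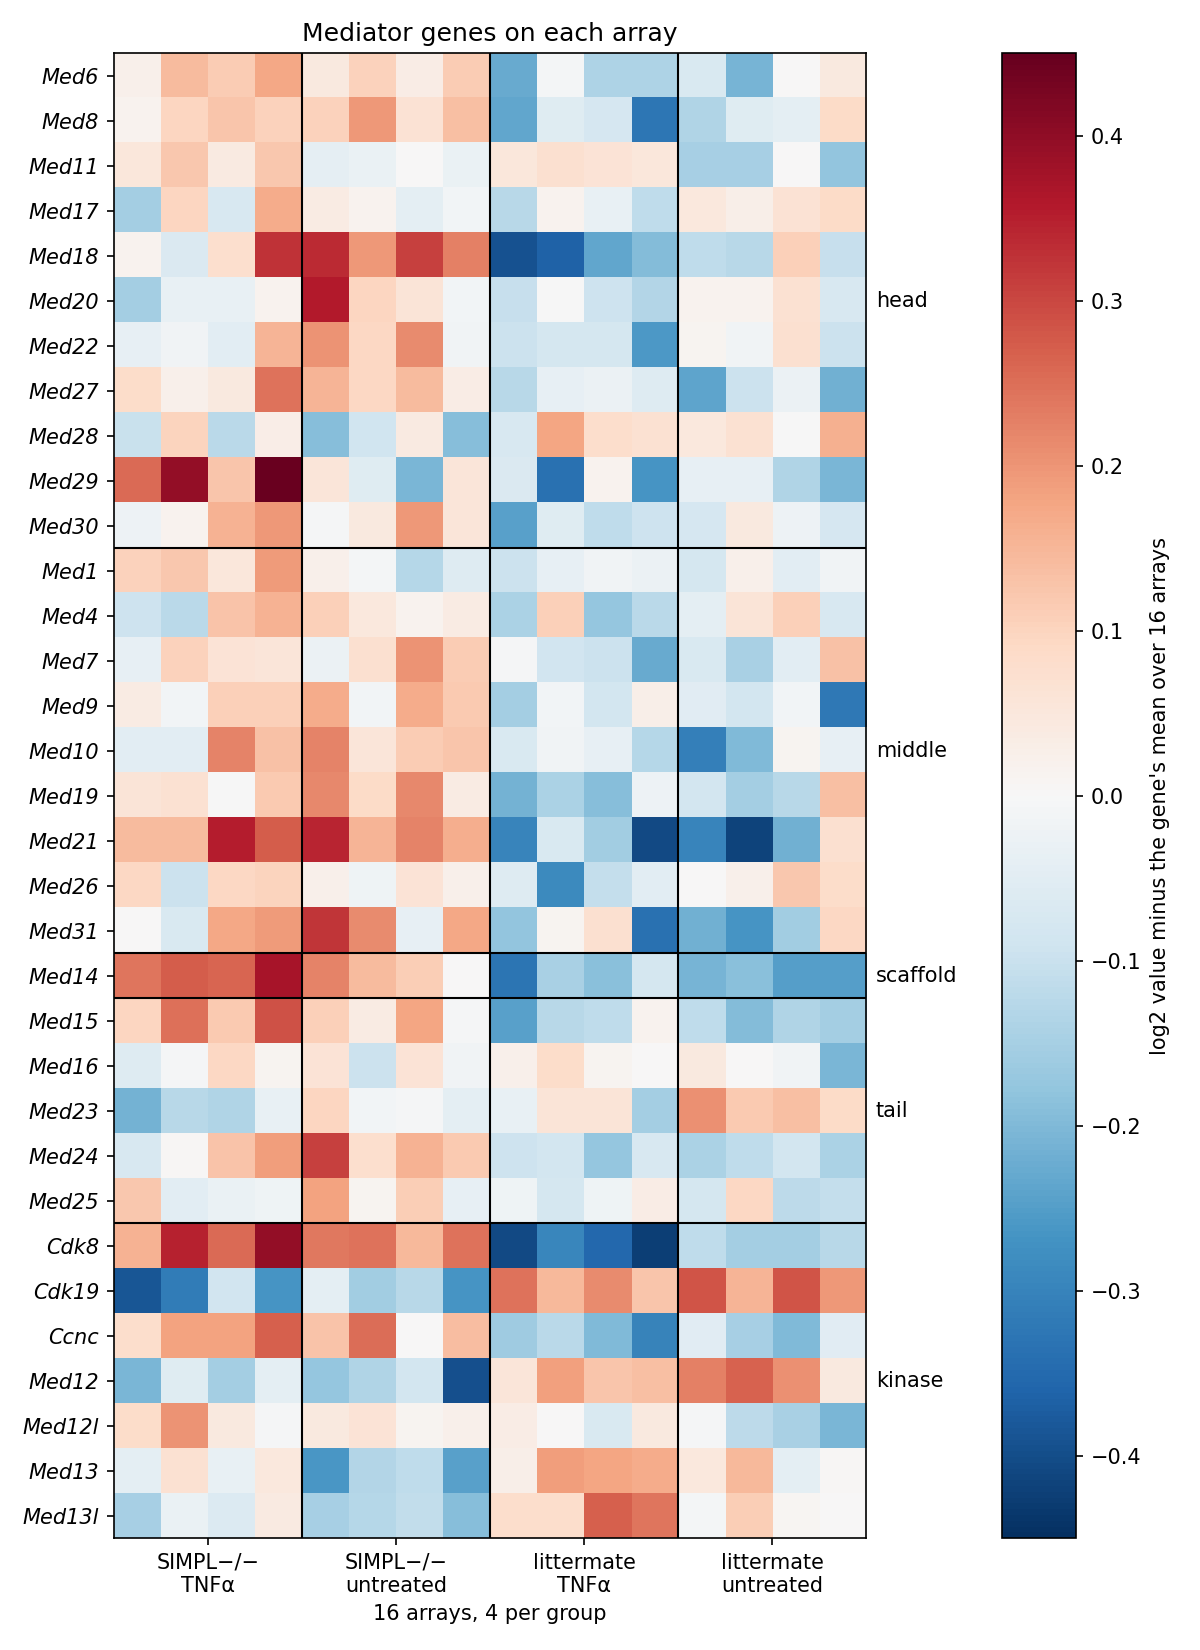
Deviation of the log2 value of each Mediator gene from its own mean over 16 arrays (colour scale, log2), with genes as rows ordered by module and arrays as columns in 4 groups of 4. Most head and middle genes are on average redder on the 8 SIMPL-/- arrays on the left, though many overlap between genotypes. The tail rows are mixed, with Med15 and Med24 redder and Med23 bluer there. The kinase module rows split, with Cdk8 and Ccnc red and Cdk19 and Med12 blue on those arrays.

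The first comparison set SIMPL-/- MEFs against littermate MEFs. Between TNFα-treated cells, SIMPL-/- MEFs had 14 of 33 Mediator genes called higher and 3 called lower (limma, adjusted p under 0.05). Between untreated cells, 13 were higher and 5 lower. Cdk8, the catalytic kinase, had the largest difference of any member, in TNFα-treated cells (1.58-fold), and Cdk19, its paralog, was lower in both comparisons (0.73-fold with TNFα and 0.77-fold untreated). The genotypes differed at many genes, so that the share of members called lay near that of other genes of like level. Over all genes, 36.3% were called with TNFα and 40.9% without it, and among genes at or above the median level, where 32 of the 33 members lie, 54.6% and 53.2% were called. Of all genes, 17.8% were higher and 18.4% lower with TNFα, and 23.3% were higher and 17.6% lower without it. At that level the shares were 25.7% higher and 28.8% lower with TNFα, and 24.8% higher and 28.4% lower without it. The members had median log2 differences of 0.15 with TNFα and 0.12 untreated, beside 0.03 and 0.07 over all genes. Among genes at or above the median level these medians were -0.0025 with TNFα and -0.0036 untreated.

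Members called in both comparisons numbered 11, and all 11 had the same direction in both. The share of all genes called in both was not counted, so the 11 are not read as a trait of the members. Higher in both were Med18, Med19, Med21, Med14, Med15, Med24, Cdk8 and Ccnc, and lower in both were Cdk19, Med12 and Med13l. Called with TNFα alone were 6 members (Med6, Med8, Med29, Med30, Med1 and Med26, all higher). Called in untreated cells alone were 7, of which Med27, Med9, Med10, Med31 and Med12l were higher and Med28 and Med13 lower. The other 9 members, Med11, Med17, Med20, Med22, Med4, Med7, Med16, Med23 and Med25, passed in neither, with differences from -0.13 to 0.15. The 2 comparisons rest on different arrays, which may come from the same MEF derivations. A call in one alone does not show that the differences themselves differ.

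Arrays of the 2 genotypes did not overlap for 18 members with TNFα (15 higher, 3 lower), where 33.3% of all genes did not overlap (16.1% higher, 17.2% lower). In untreated cells 14 did not overlap (10 higher, 4 lower), beside 39.6% of all genes (22.1% higher, 17.5% lower). Among 9969 genes at or above the median level, 5201 did not overlap with TNFα (2469 higher, 2732 lower). Untreated, 5428 of them did not overlap (2534 higher, 2894 lower). Among the 26 members outside the kinase module, 12 were higher and 0 lower with TNFα, and 10 were higher and 1 (Med28) lower without it. That is 46.2% and 42.3% called, beside 54.6% and 53.2% of genes at or above the median level. Of those genes 25.7% were higher and 28.8% lower with TNFα, and 24.8% were higher and 28.4% lower without it. The kinase module, left out of these counts, held 3 lower calls with TNFα and 4 without it. The module medians were above 0 in the head, middle and tail and below 0 in the kinase module. In that module 3 of 7 estimates were above 0 in each comparison, so its median does not describe all its genes. With TNFα the deviation of its genes from their own means over 16 arrays averaged 0.018 in SIMPL-/- and 0.007 in littermate MEFs. Untreated, these averages were -0.042 and 0.017. With TNFα the median log2 difference was 0.16 in the head, 0.17 in the middle, 0.02 in the tail and -0.13 in the kinase module, and untreated it was 0.12, 0.20, 0.12 and -0.17 in the same order.

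**Figure D2:**
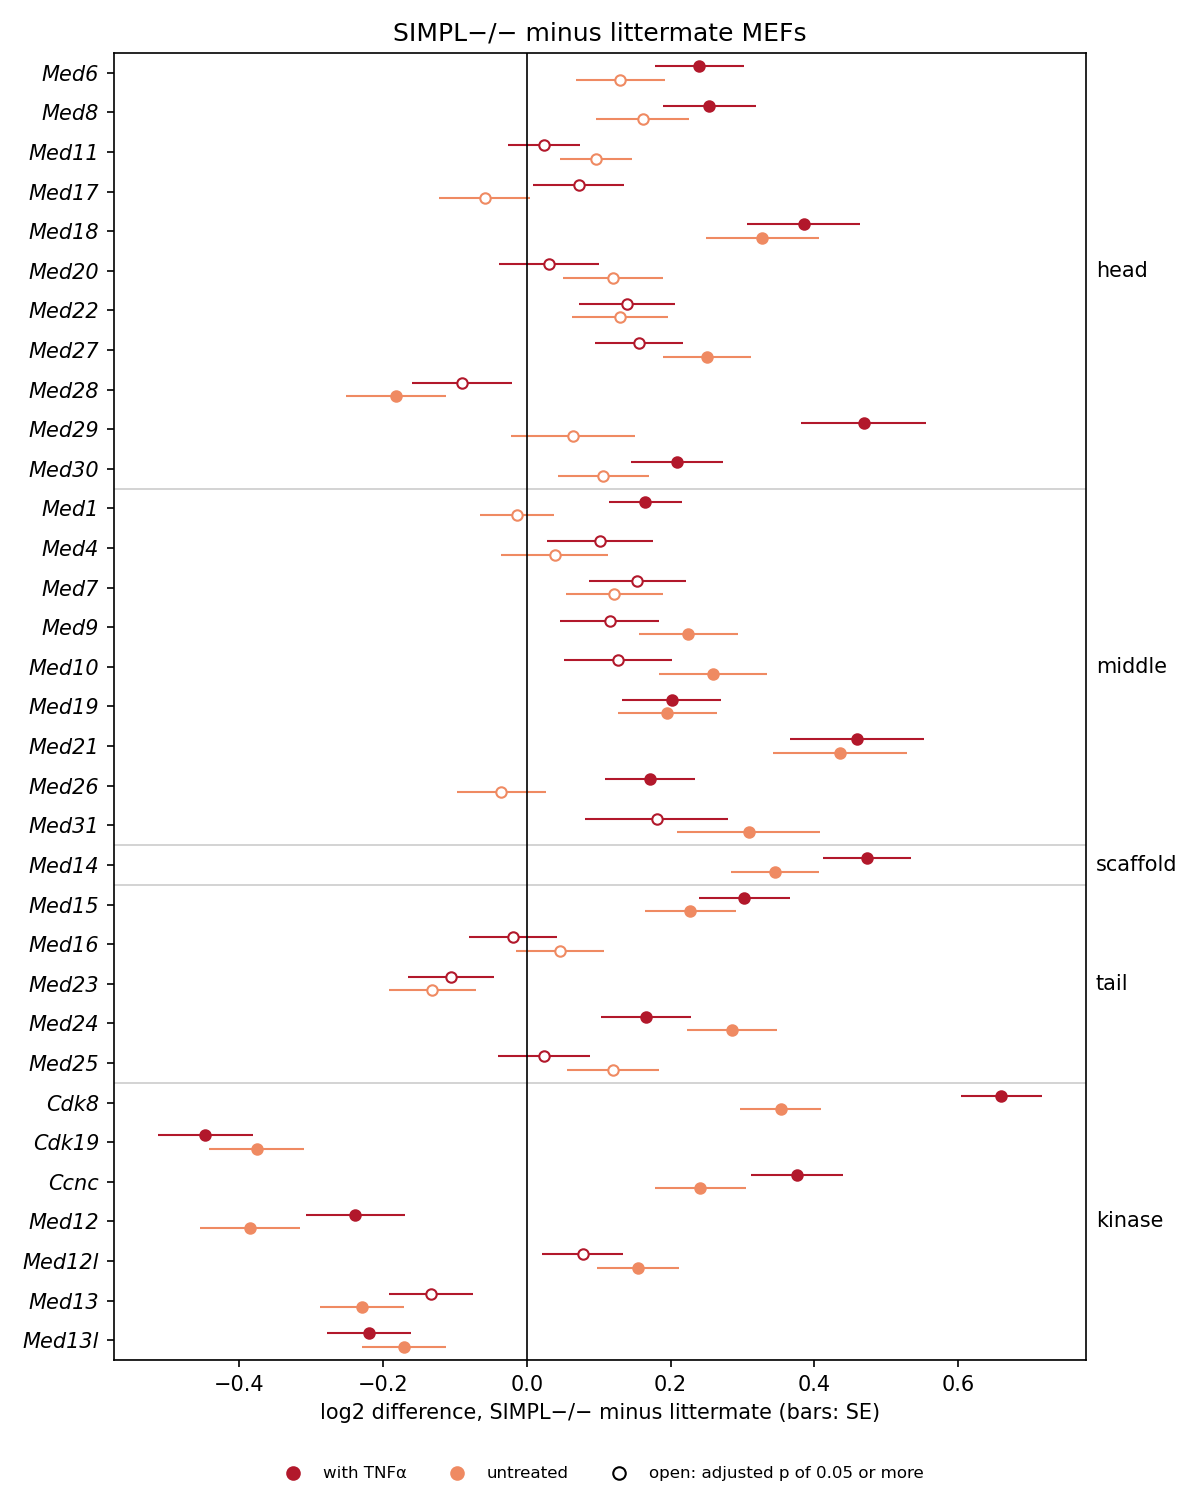
Difference between SIMPL-/- and littermate MEFs (horizontal axis, log2) for each of the 33 Mediator genes by module, with TNFα in dark red and untreated in orange. Bars are the SE of the linear model and filled points have an adjusted p under 0.05, and Cdk8 reaches 0.66 with TNFα while Cdk19 lies at -0.45.

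The kinase module differed within itself. In untreated cells all 7 of its genes were called, Cdk8, Ccnc and Med12l higher and Cdk19, Med12, Med13 and Med13l lower in SIMPL-/- MEFs, and for all 7 the arrays of the genotypes did not overlap. With TNFα, 2 were higher and 3 lower. Among genes at or above the median level, 53.2% were called untreated and 54.6% with TNFα, and 5428 of 9969 did not overlap untreated. Those shares stand beside each module count below too. Cdk8 read 10.19, 10.38, 10.29 and 10.43 with TNFα and 10.27, 10.28, 10.18 and 10.28 untreated in SIMPL-/- MEFs. In littermate MEFs Cdk8 read 9.63, 9.74, 9.68 and 9.61 with TNFα and 9.92, 9.88, 9.88 and 9.91 untreated. Every SIMPL-/- array lay above every littermate array. The Cdk8 difference was 0.66 (SE 0.06, adjusted p = 1.93e-08) with TNFα and 0.35 (SE 0.06, adjusted p = 6.00e-05) without it.

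Cdk19, which can take the place of CDK8 in the module, moved the other way. It read 8.33, 8.40, 8.63 and 8.45 with TNFα and 8.67, 8.56, 8.59 and 8.45 untreated in SIMPL-/- MEFs. In littermate MEFs Cdk19 read 8.96, 8.86, 8.93 and 8.84 with TNFα and 9.00, 8.87, 9.00 and 8.91 untreated. No SIMPL-/- array reached the lowest littermate array. The Cdk19 difference was -0.45 (SE 0.07, adjusted p = 2.02e-05) with TNFα and -0.38 (SE 0.07, adjusted p = 0.000158) without it.

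Ccnc, encoding the cyclin that partners both kinases, went with Cdk8. It read 8.83, 8.93, 8.93 and 9.02 with TNFα and 8.88, 9.00, 8.75 and 8.89 untreated in SIMPL-/- MEFs. In littermate MEFs it read 8.59, 8.63, 8.55 and 8.45 with TNFα and 8.70, 8.60, 8.55 and 8.70 untreated. All SIMPL-/- arrays were above all littermate arrays, with differences of 0.38 (SE 0.06, adjusted p = 9.12e-05) with TNFα and 0.24 (SE 0.06, adjusted p = 0.00535) without it.

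Med12, whose product activates the cyclin C and CDK8 pair, lies on the X chromosome. It read 8.89, 9.04, 8.94 and 9.05 with TNFα and 8.92, 8.96, 9.01 and 8.70 untreated in SIMPL-/- MEFs. Littermate MEFs gave 9.15, 9.28, 9.22 and 9.23 with TNFα and 9.32, 9.36, 9.30 and 9.14 untreated. All 8 SIMPL-/- arrays were below all 8 littermate arrays, with differences of -0.24 (SE 0.07, adjusted p = 0.0106) with TNFα and -0.38 (SE 0.07, adjusted p = 0.000207) without it. Med14, the other X-linked member, was higher, and of 742 X-linked genes 106 were higher and 150 lower with TNFα, and 140 were higher and 151 lower without it.

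Med13, which ties the kinase module to the rest of Mediator, read 9.92, 10.03, 9.93 and 10.01 with TNFα and 9.70, 9.83, 9.85 and 9.72 untreated in SIMPL-/- MEFs. In littermate MEFs Med13 read 9.99, 10.15, 10.14 and 10.13 with TNFα and 10.01, 10.11, 9.92 and 9.97 untreated. The untreated groups stood apart, with a difference of -0.23 (SE 0.06, adjusted p = 0.00446). The treated groups overlapped, and their difference of -0.13 (SE 0.06, adjusted p = 0.0860) did not pass. Its paralog Med13l differed by -0.22 (SE 0.06, adjusted p = 0.00595) with TNFα and -0.17 (SE 0.06, adjusted p = 0.0270) without it. The untreated Med13l call was lost without littermate untreated replicate 2 or without SIMPL-/- untreated replicate 1 or 4 (adjusted p 0.0510 to 0.0841).

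Med12l, the Med12 paralog, was the 1 member whose mean lay below the median gene. It was higher in untreated SIMPL-/- MEFs by 0.15 (SE 0.06, adjusted p = 0.0365), and its difference with TNFα was 0.08 (adjusted p = 0.314). Leaving out any untreated array other than littermate replicate 1 ended the Med12l call (adjusted p 0.0543 to 0.107).

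**Figure D3:**
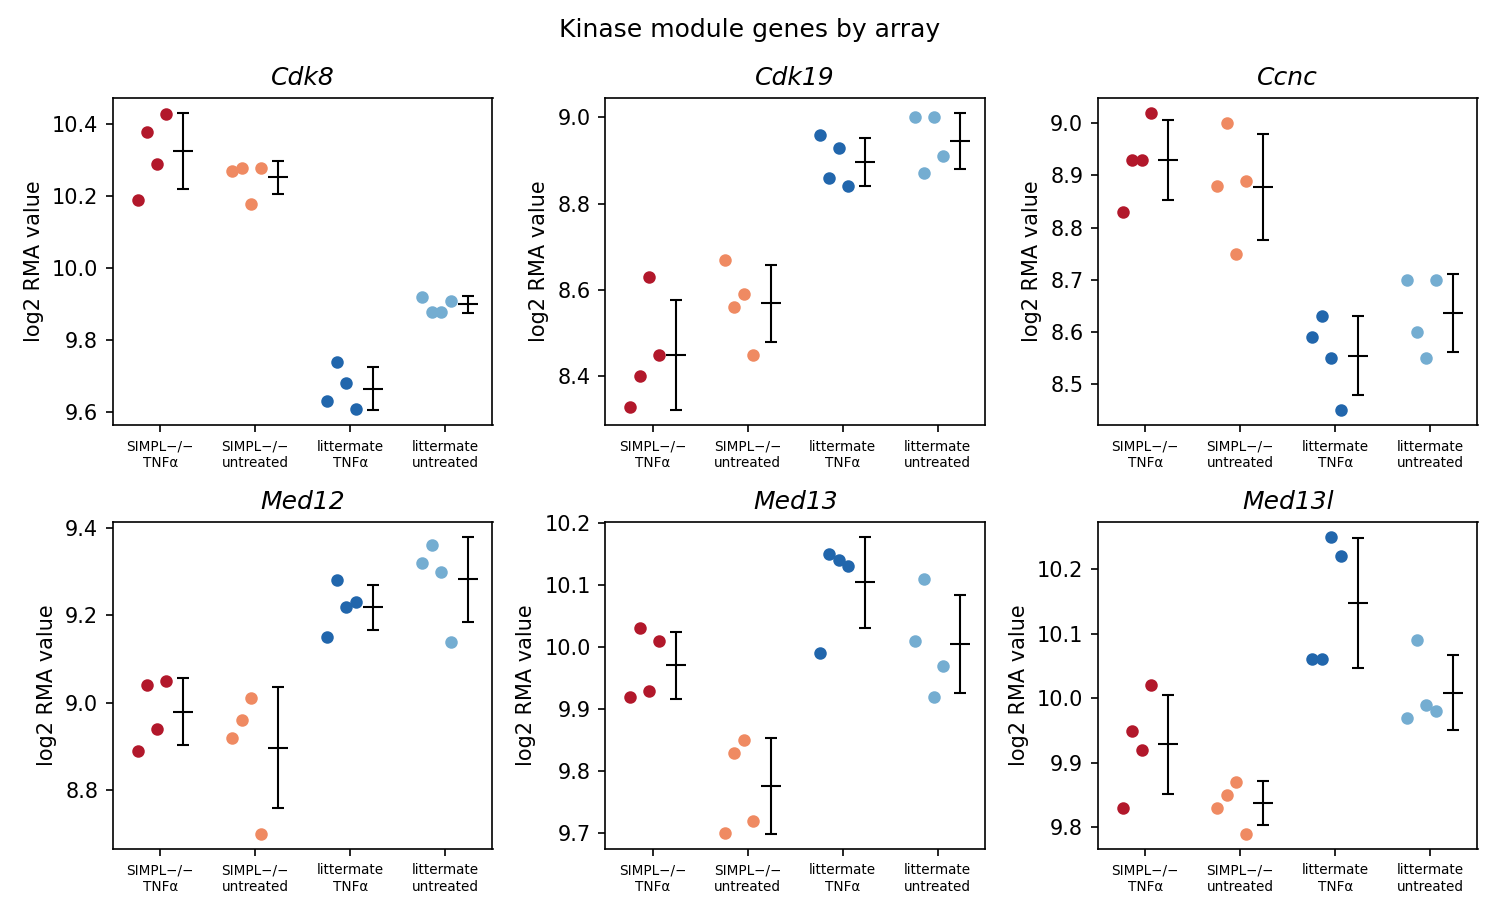
Log2 value of 6 kinase module genes on every array (points, 4 per group) with the mean and SD of the group (black bars), in SIMPL-/- MEFs on the left and littermate MEFs on the right of each panel. Axes span each gene's own range. For Cdk8, Cdk19, Ccnc and Med12 the 8 SIMPL-/- arrays do not overlap the 8 littermate arrays.

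In the head, the module whose subunits contact polymerase most closely, 5 of 11 genes were higher with TNFα (Med6, Med8, Med18, Med29 and Med30). In untreated cells 2 were higher (Med18 and Med27) and 1 was lower (Med28). Med18, part of the movable jaw of the head with MED20, read 7.29, 7.21, 7.35 and 7.60 with TNFα and 7.61, 7.47, 7.58 and 7.50 untreated in SIMPL-/- MEFs. Littermate MEFs gave 6.88, 6.91, 7.04 and 7.08 with TNFα and 7.16, 7.15, 7.38 and 7.17 untreated. The groups stood apart under either treatment, with differences of 0.38 (SE 0.08, adjusted p = 0.000638) with TNFα and 0.33 (SE 0.08, adjusted p = 0.00276) without it. Med20, the partner of Med18 in the jaw, differed by 0.03 (adjusted p = 0.775) with TNFα and 0.12 (adjusted p = 0.177) without it. A probe set shared by Usp49 and Med20, left out of the counts, was higher in untreated SIMPL-/- MEFs (limma, 0.23, SE 0.07, adjusted p = 0.0136). With TNFα that probe set differed by 0.06 (adjusted p = 0.537).

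Med29, a metazoan subunit homologous to the fly intersex protein, stood apart in the treated cells alone. It read 8.36, 8.50, 8.23 and 8.55 with TNFα and 8.16, 8.05, 7.90 and 8.16 untreated in SIMPL-/- MEFs. In littermate MEFs it read 8.04, 7.77, 8.12 and 7.84 with TNFα and 8.07, 8.07, 7.97 and 7.90 untreated. Treated SIMPL-/- arrays lay above all others. Its difference was 0.47 (SE 0.09, adjusted p = 0.000240) with TNFα and 0.06 (SE 0.09, adjusted p = 0.566) without it.

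Med27, another subunit of the head and tail border, read 9.16, 9.10, 9.12 and 9.32 with TNFα and 9.23, 9.17, 9.22 and 9.11 untreated in SIMPL-/- MEFs. Littermate MEFs gave 8.95, 9.04, 9.05 and 9.02 with TNFα and 8.84, 8.98, 9.05 and 8.86 untreated. The Med27 groups did not overlap in either comparison, and the untreated difference of 0.25 (SE 0.06, adjusted p = 0.00318) passed while that with TNFα, 0.16 (SE 0.06, adjusted p = 0.0554), missed the threshold narrowly.

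Med8, a head subunit that anchors MED18 and MED20, read 8.46, 8.54, 8.57 and 8.55 with TNFα and 8.55, 8.64, 8.51 and 8.58 untreated in SIMPL-/- MEFs. Its littermate values were 8.21, 8.39, 8.37 and 8.12 with TNFα and 8.31, 8.39, 8.40 and 8.53 untreated. The difference was 0.25 (SE 0.07, adjusted p = 0.00432) with TNFα, where the groups stood apart, and 0.16 (SE 0.07, adjusted p = 0.0554) without it. Med6, at the joint of head and middle, gave 8.83, 8.95, 8.92 and 8.98 with TNFα and 8.85, 8.91, 8.84 and 8.92 untreated in SIMPL-/- MEFs. Its littermate values were 8.58, 8.80, 8.67 and 8.67 with TNFα and 8.74, 8.60, 8.81 and 8.85 untreated. Treated groups again stood apart (0.24, SE 0.06, adjusted p = 0.00463) and untreated groups overlapped (0.13, SE 0.06, adjusted p = 0.101).

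The remaining head genes differed less. Med30 was higher with TNFα by 0.21 (SE 0.06, adjusted p = 0.0144), a call lost without SIMPL-/- TNFα replicate 4 (adjusted p = 0.0510) or littermate TNFα replicate 1 (adjusted p = 0.0553). Med28 was lower in untreated SIMPL-/- MEFs (-0.18, SE 0.07, adjusted p = 0.0444), but its groups overlapped. The Med28 call was lost without any 1 of 7 arrays (adjusted p 0.0513 to 0.120), namely littermate untreated replicate 1, 2 or 4, SIMPL-/- untreated replicate 1, 2 or 4, or littermate TNFα replicate 3. Med17, the core subunit of the head, showed differences of 0.07 and -0.06, Med11 of 0.02 and 0.10, and Med22, which pairs with MED11, of 0.14 and 0.13, with and without TNFα in that order, and none of them passed.

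In the middle module, the flexible part that links the head to the kinase module, no gene was called lower. With TNFα 4 of 9 were higher (Med1, Med19, Med21 and Med26), and in untreated cells 5 were (Med9, Med10, Med19, Med21 and Med31). Med21, which forms the hinge of the middle with MED7, read 8.74, 8.74, 8.95 and 8.87 with TNFα and 8.94, 8.75, 8.82 and 8.76 untreated in SIMPL-/- MEFs. Littermate MEFs gave 8.30, 8.53, 8.44 and 8.19 with TNFα and 8.30, 8.18, 8.38 and 8.67 untreated. All SIMPL-/- arrays lay above all littermate arrays, with differences of 0.46 (SE 0.09, adjusted p = 0.000583) with TNFα and 0.44 (SE 0.09, adjusted p = 0.00105) without it. For Med7, the hinge partner, the differences were 0.15 (adjusted p = 0.0863) and 0.12 (adjusted p = 0.155).

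Med1 is the docking subunit for nuclear receptors and the one that the study followed in complexes with SIMPL and p65. It read 9.28, 9.30, 9.23 and 9.37 with TNFα and 9.20, 9.17, 9.05 and 9.12 untreated in SIMPL-/- MEFs. In littermate MEFs Med1 read 9.08, 9.14, 9.16 and 9.15 with TNFα and 9.10, 9.20, 9.13 and 9.16 untreated. The treated SIMPL-/- arrays lay above the arrays of all other groups, and those other groups overlapped each other. With TNFα the Med1 difference was 0.17 (SE 0.05, 95% interval 0.06 to 0.27, adjusted p = 0.0156), a 1.12-fold change. Without TNFα it was -0.01 (SE 0.05, 95% interval -0.12 to 0.09, adjusted p = 0.848).

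Med10, a conserved middle subunit, read 10.14, 10.14, 10.41 and 10.32 with TNFα and 10.41, 10.24, 10.30 and 10.31 untreated in SIMPL-/- MEFs. In littermate MEFs the values were 10.12, 10.17, 10.15 and 10.06 with TNFα and 9.88, 9.99, 10.20 and 10.15 untreated. The untreated groups stood apart (0.26, SE 0.08, adjusted p = 0.0103), and with TNFα the difference was 0.13 (SE 0.08, adjusted p = 0.206). Med9 gave 8.13, 8.08, 8.20 and 8.20 with TNFα and 8.26, 8.08, 8.26 and 8.21 untreated in SIMPL-/- MEFs. Littermate arrays gave 7.94, 8.08, 8.01 and 8.12 with TNFα and 8.04, 8.01, 8.08 and 7.77 untreated. The Med9 arrays overlapped, with a difference of 0.22 (SE 0.07, adjusted p = 0.0143) untreated and 0.12 (SE 0.07, adjusted p = 0.211) with TNFα. Without littermate untreated replicate 4, the lowest Med9 array, the untreated call was lost (adjusted p = 0.0584).

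Med31, a small subunit beside MED7, read 7.90, 7.83, 8.07 and 8.09 with TNFα and 8.22, 8.11, 7.86 and 8.07 untreated in SIMPL-/- MEFs. Littermate MEFs had 7.72, 7.91, 7.97 and 7.56 with TNFα and 7.68, 7.63, 7.74 and 7.99 untreated. The Med31 groups overlapped in both comparisons, and the untreated difference of 0.31 (SE 0.10, adjusted p = 0.0190) passed while that with TNFα (0.18, SE 0.10, adjusted p = 0.174) did not. The untreated call was lost without littermate untreated replicate 1 or 2 or SIMPL-/- untreated replicate 1 (adjusted p 0.0538 to 0.0654).

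Med19 differed by 0.20 under either treatment (SE 0.07, adjusted p = 0.0269 with TNFα and 0.0297 without it). Over all alternatives the Med19 estimate ran from 0.179 to 0.252 with TNFα and from 0.163 to 0.26 untreated. Each Med19 call lay near the threshold. With TNFα it was lost without SIMPL-/- TNFα replicate 2 or 4 or littermate TNFα replicate 1, 2 or 3 (adjusted p 0.0505 to 0.0731). In untreated cells it was lost without SIMPL-/- untreated replicate 1 or 3 or littermate untreated replicate 1, 2 or 3 (adjusted p 0.0694 to 0.0896). Med26, the subunit that recruits elongation factors, was higher with TNFα (0.17, SE 0.06, adjusted p = 0.0371) and differed by -0.04 untreated. Its call was lost without SIMPL-/- TNFα replicate 1, 3 or 4 or littermate TNFα replicate 2 or 3 (adjusted p 0.0579 to 0.152).

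Med4 was the 1 member with a second probe set of its own. The brighter one, used in all counts, showed differences of 0.10 (adjusted p = 0.313) with TNFα and 0.04 (adjusted p = 0.692) without it. The other averaged 7.76 ± 0.16 with TNFα and 7.52 ± 0.20 untreated in SIMPL-/- MEFs, against 7.20 ± 0.27 and 7.52 ± 0.17 in littermate MEFs (SD, n = 4 arrays each). For that probe set the treated genotypes stood apart (0.56, SE 0.13, adjusted p = 0.00157) and the untreated ones did not (0.00), so the Med4 probe sets disagree in TNFα-treated cells.

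Med14, the X-linked backbone on which head, middle and tail assemble, read 10.14, 10.17, 10.16 and 10.27 with TNFα and 10.12, 10.04, 10.01 and 9.90 untreated in SIMPL-/- MEFs. In littermate MEFs it read 9.57, 9.75, 9.71 and 9.82 with TNFα and 9.69, 9.71, 9.65 and 9.65 untreated. All 8 SIMPL-/- arrays lay above all 8 littermate arrays. The Med14 difference was 0.47 (SE 0.06, adjusted p = 4.25e-06) with TNFα, a 1.39-fold change, and 0.35 (SE 0.06, adjusted p = 0.000178) without it.

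In the tail, where many activators bind, 2 of 5 genes were higher in SIMPL-/- MEFs in both comparisons and 0 were lower. Med15, known for binding SREBP activators and named by the study in SIMPL complexes, read 9.84, 9.99, 9.86 and 10.03 with TNFα and 9.85, 9.78, 9.92 and 9.74 untreated in SIMPL-/- MEFs. Littermate MEFs gave 9.50, 9.62, 9.63 and 9.76 with TNFα and 9.63, 9.55, 9.61 and 9.59 untreated. Under each treatment the genotypes stood apart. The Med15 difference was 0.30 (SE 0.06, adjusted p = 0.000778) with TNFα and 0.23 (SE 0.06, adjusted p = 0.00795) without it.

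Med24, which sits with MED16 and MED23 in the tail, read 9.20, 9.28, 9.40 and 9.46 with TNFα and 9.58, 9.35, 9.43 and 9.39 untreated in SIMPL-/- MEFs. In littermate MEFs the values were 9.18, 9.19, 9.10 and 9.20 with TNFα and 9.13, 9.16, 9.19 and 9.13 untreated. The untreated groups stood well apart (0.29, SE 0.06, adjusted p = 0.00123), and the treated groups nearly touched (0.17, SE 0.06, adjusted p = 0.0441). The treated Med24 call was lost without any 1 of 12 arrays (adjusted p 0.0504 to 0.137), namely any littermate array, SIMPL-/- untreated replicate 3 or 4, or SIMPL-/- TNFα replicate 3 or 4.

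Med23, a target of the activators ELK1 and adenoviral E1A, had negative estimates. It read 8.47, 8.56, 8.55 and 8.65 with TNFα and 8.78, 8.67, 8.68 and 8.64 untreated in SIMPL-/- MEFs. Littermate arrays gave 8.65, 8.74, 8.74 and 8.53 with TNFα and 8.89, 8.80, 8.82 and 8.77 untreated. The groups overlapped, with differences of -0.11 (SE 0.06, adjusted p = 0.187) with TNFα and -0.13 (SE 0.06, adjusted p = 0.0876) without it.

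Med25, bound by the viral activator VP16, read 9.27, 9.10, 9.12 and 9.13 with TNFα and 9.33, 9.16, 9.26 and 9.11 untreated in SIMPL-/- MEFs. Littermate MEFs had 9.13, 9.07, 9.13 and 9.18 with TNFα and 9.07, 9.24, 9.03 and 9.04 untreated. The differences were 0.02 (SE 0.06, adjusted p = 0.811) and 0.12 (SE 0.06, adjusted p = 0.137). Med16 gave 9.00, 9.05, 9.15 and 9.07 with TNFα and 9.12, 8.96, 9.12 and 9.04 untreated in SIMPL-/- MEFs. In littermate MEFs the values were 9.08, 9.14, 9.07 and 9.06 with TNFα and 9.10, 9.06, 9.04 and 8.85 untreated. Med16 differed by -0.02 (SE 0.06, 95% interval -0.15 to 0.11) with TNFα and 0.05 (SE 0.06, 95% interval -0.08 to 0.17) without it.

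**Figure D4:**
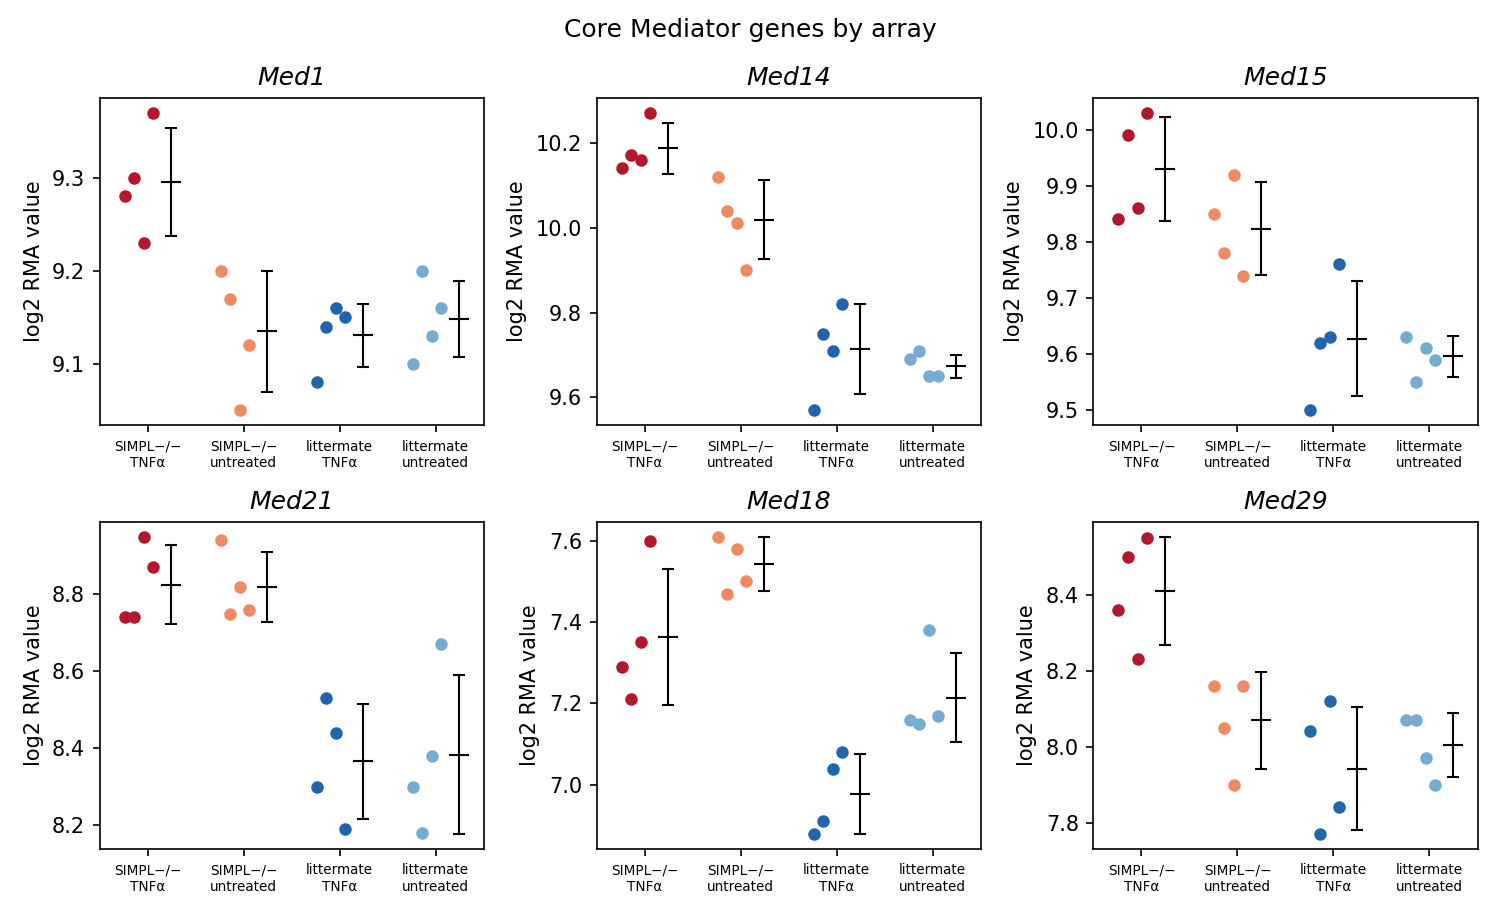
Log2 value of 6 Mediator genes outside the kinase module on every array (points, 4 per group) with the mean and SD of the group (black bars), in SIMPL-/- MEFs on the left and littermate MEFs on the right of each panel. Axes span each gene's own range. Med14 and Med21 separate the genotypes on all arrays, while Med1 and Med29 are high in TNFα-treated SIMPL-/- MEFs.

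The second comparison set TNFα-treated MEFs against untreated MEFs of the same genotype. Few Mediator transcripts were called, as few genes of any kind were. The shares of members called, 3.03% in SIMPL-/- and 6.06% in littermate MEFs, lay near those of all genes. In SIMPL-/- MEFs 1 of 33 was called, Med29 (higher), where 3.12% of all genes were called (1.73% higher, 1.39% lower). In littermate MEFs 2 were called, Med11 (higher) and Cdk8 (lower), where 5.15% of all genes were (2.7% higher, 2.45% lower). The largest called change was 1.27-fold. At an unadjusted p under 0.05 there were 8 members in SIMPL-/- MEFs (5 higher, 3 lower) and 7 in littermate MEFs (3 higher, 4 lower), and the median differences of the members were 0.01 and -0.05, beside -0.02 and 0.01 over all genes.

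Med29 was 0.34 higher after TNFα in SIMPL-/- MEFs (SE 0.09, adjusted p = 0.0362), with all treated arrays (8.23 to 8.55) above all untreated ones (7.90 to 8.16). In littermate MEFs its treated arrays (7.77 to 8.12) overlapped the untreated ones (7.90 to 8.07), with a difference of -0.06 (SE 0.09, adjusted p = 0.792). The Med29 call was lost without SIMPL-/- TNFα replicate 1, 2 or 4 or SIMPL-/- untreated replicate 2 or 3 (adjusted p 0.0616 to 0.129). The difference between the responses, 0.40 (SE 0.12, adjusted p = 0.173), did not pass.

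Cdk8 was 0.23 lower after TNFα in littermate MEFs (a difference of -0.23, SE 0.06, adjusted p = 0.0184), with treated arrays at 9.61 to 9.74 and untreated ones at 9.88 to 9.92. In SIMPL-/- MEFs the treated arrays, 10.19 to 10.43, overlapped the untreated ones, 10.18 to 10.28, and the difference was 0.07 (SE 0.06, adjusted p = 0.592). The littermate call was lost without littermate TNFα replicate 1 or 4 or littermate untreated replicate 1 (adjusted p 0.0538 to 0.0639). The difference between the Cdk8 responses was 0.31 (SE 0.08, adjusted p = 0.106). It passed without SIMPL-/- TNFα replicate 1 (adjusted p = 0.0447).

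Med11, a small head subunit, read 9.01, 9.08, 9.00 and 9.08 with TNFα and 8.92, 8.93, 8.96 and 8.93 untreated in SIMPL-/- MEFs. In littermate MEFs it read 9.01, 9.03, 9.02 and 9.01 with TNFα and 8.81, 8.81, 8.96 and 8.78 untreated. Treated arrays lay above untreated ones in both genotypes. The response was 0.11 (SE 0.05, adjusted p = 0.293) in SIMPL-/- MEFs and 0.18 (SE 0.05, adjusted p = 0.0386) in littermate MEFs, and the difference between them was -0.07 (SE 0.07, adjusted p = 0.701). The Med11 call was lost without any 1 of 9 arrays (adjusted p 0.0509 to 0.117), namely any littermate TNFα array, littermate untreated replicate 1, 2 or 4, SIMPL-/- untreated replicate 4 or SIMPL-/- TNFα replicate 2.

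Besides Med29 and Med11, 6 members had an unadjusted p under 0.05 in SIMPL-/- MEFs, 3 with positive and 3 with negative estimates, and none of the 6 was called. Med13 differed by 0.19 (SE 0.06, adjusted p = 0.0879), Med1 by 0.16 (SE 0.05, adjusted p = 0.109) and Med14 by 0.17 (SE 0.06, adjusted p = 0.172), and their treated arrays did not overlap the untreated ones. With dim genes left out, Med13 (adjusted p = 0.0271) and Med1 (adjusted p = 0.0335) passed in SIMPL-/- MEFs, and Med13 passed also with trend and robust moderation or array weights. The negative estimates were those of Med20 (-0.18, SE 0.07, adjusted p = 0.204), Med18 (-0.18, SE 0.08, adjusted p = 0.274) and Med23 (-0.13, SE 0.06, adjusted p = 0.294), whose treated and untreated arrays overlapped. In littermate MEFs the responses were 0.10 for Med13, -0.02 for Med1 and 0.04 for Med14, and none passed. Med15 responded by 0.11 (SE 0.06, adjusted p = 0.456) in SIMPL-/- and 0.03 (SE 0.06, adjusted p = 0.873) in littermate MEFs.

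Counting arrays that do not overlap, 5 members in SIMPL-/- MEFs stood apart after TNFα, all higher (Med11, Med29, Med1, Med14 and Med13), beside 9.28% of all genes (3.87% higher, 5.41% lower). Of 9969 genes at or above the median level, 1422 stood apart in SIMPL-/- MEFs (654 higher, 768 lower). In littermate MEFs 1666 of those genes did (682 higher, 984 lower). In littermate MEFs 6 stood apart, Med11 higher and Med17, Med18, Med26, Med23 and Cdk8 lower, beside 11.4% of all genes (5.29% higher, 6.12% lower). Of these lower genes, Med18 had a response of -0.24 (SE 0.08, adjusted p = 0.102) in littermate MEFs. Med26 had 0.02 in SIMPL-/- MEFs and -0.18 (SE 0.06, adjusted p = 0.112) in littermate MEFs. With dim genes left out both littermate responses passed (adjusted p = 0.0440 for Med18 and 0.0465 for Med26). By module, the median response in SIMPL-/- MEFs was 0.01 in the head, -0.04 in the middle, -0.07 in the tail and 0.07 in the kinase module, against -0.09, -0.02, 0.03 and -0.05 in littermate MEFs.

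The third comparison asked whether the TNFα response itself differed by genotype. None of the 33 members passed (limma, 0 called, 4 at an unadjusted p under 0.05), where 0.537% of all genes did (0.0953% higher, 0.441% lower). Those 4, all with positive differences, were Cdk8 (0.31) and Med29 (0.40), given above, Med26 (0.21, SE 0.09, adjusted p = 0.333) and Med1 (0.18, SE 0.07, adjusted p = 0.314). For Med1 the 95% interval ran from 0.03 to 0.33, and for Med15, with a difference of 0.08, from -0.11 to 0.26. Cdk8 passed when dim genes were left out (adjusted p = 0.0346) or with trend and robust moderation (adjusted p = 0.0226).

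**Figure D5:**
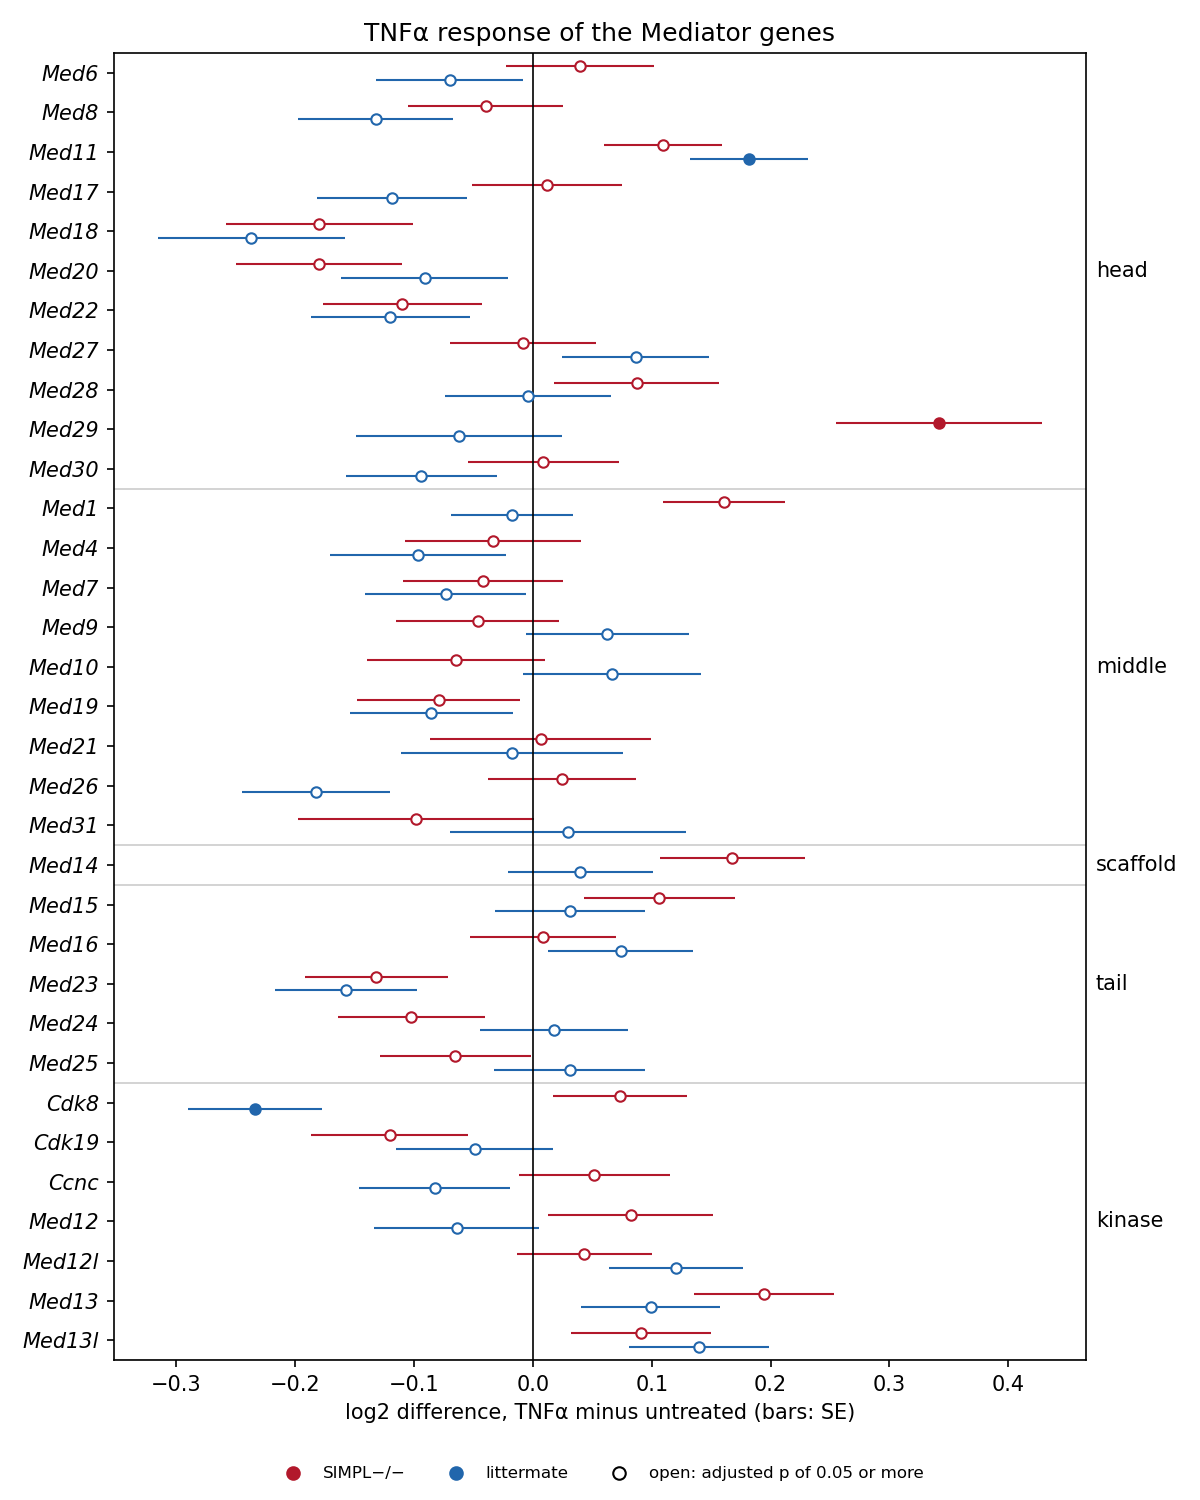
TNFα response (horizontal axis, log2 difference between treated and untreated arrays) of each Mediator gene by module, in SIMPL-/- MEFs (red) and littermate MEFs (blue). Bars are the SE of the linear model. Filled points, with an adjusted p under 0.05, are Med29 in SIMPL-/- MEFs and Med11 and Cdk8 in littermate MEFs.

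The partners of Mediator at a promoter were read in the same way. Their counts stand beside the shares over all genes, 17.8% higher and 18.4% lower with TNFα and 23.3% higher and 17.6% lower without it. Among genes at or above the median level, 25.7% were higher and 28.8% lower with TNFα, and 24.8% were higher and 28.4% lower without it. How many of the listed genes lie at that level was not counted. RNA polymerase II subunits, the enzyme that Mediator loads, numbered 12, of which 5 were higher and 1 lower with TNFα in SIMPL-/- MEFs, and 4 were higher and 0 lower without it. The clearest untreated differences were in Polr2l (0.49, SE 0.07), Polr2d (0.42, SE 0.07) and Polr2e (0.33, SE 0.06). Of 32 measured general transcription factor genes, which place polymerase at the start site, 11 were higher and 3 lower with TNFα, and 10 were higher and 3 lower without it. Gtf2f2 of TFIIF was 0.47 higher in untreated cells (SE 0.06, adjusted p = 6.08e-06), Taf9b 0.60 higher (SE 0.10) and Ccnh, the cyclin of TFIIH, lower (-0.34, SE 0.06).

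Of 22 measured pause release and elongation factor genes, 7 were higher and 3 lower with TNFα, and 5 were higher and 2 lower without it. Eaf1 (0.43, SE 0.06) and Aff1 (0.42, SE 0.07) were higher and Hexim1, an inhibitor of the elongation kinase P-TEFb, was lower (-0.37, SE 0.07) in untreated SIMPL-/- MEFs. After TNFα 2 of the 22 were called higher in each genotype, where 1.73% of all genes in SIMPL-/- MEFs and 2.7% in littermate MEFs were, and the median response of the list was 0.01 in both. Those were Ell2, an elongation factor named here after its values were seen (0.84 in SIMPL-/- and 0.72 in littermate MEFs, SE 0.08 each), with Eaf1 in SIMPL-/- MEFs (0.28, SE 0.06) and Aff1 in littermate MEFs (0.25, SE 0.07).

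Cohesin and its loader join enhancers to promoters with Mediator. Of 10 measured genes, 1 was higher and 3 were lower with TNFα, and 0 were higher and 7 lower without it, among them Pds5b (-0.37, SE 0.06), Stag1 (-0.32, SE 0.06) and Smc3 (-0.23, SE 0.06). The median difference of the cohesin genes was -0.11 with TNFα and -0.17 without it. Of 10 genes for histone acetyltransferase coactivators, 1 was higher and 6 were lower with TNFα, and 0 were higher and 6 lower without it, with median differences of -0.22 and -0.24. Among all genes at or above the median level, 28.8% were lower with TNFα and 28.4% without it. Ep300, encoding p300, was 0.53 lower in untreated cells (a difference of -0.53, SE 0.07), and the nuclear receptor coactivators Ncoa1 (-0.57, SE 0.07) and Ncoa3 (-0.58, SE 0.07) were lower too. All genes named in these lists had an adjusted p under 0.05 in untreated cells, and the lists are described by their counts alone, with no test of a list.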

How the data were processed

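The deposited table holds log2 values, from 2.41 to 14.9, for 28853 probe sets on 16 arrays, which the authors made with RMA (background correction, quantile normalisation and summary of probes) in Partek, with versions not given in the sources used here. The methods of the study name Affymetrix Microarray Suite. RMA shrinks small differences towards 0 and its values have no true zero. Probe sets with 1 gene symbol in the platform annotation (21789) were kept, those with several (1621, including probe sets shared by Med20 or Cdk8 with another gene) or no listed gene (5443) were left out, and the brightest was taken for the 999 genes with more than 1. Of 19938 genes, 19919 were found in the RefSeq gene table. Arrays were grouped by the labels. Replicate numbers were given here within each group in the order of the deposit. The same number in different groups does not link arrays.

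A model with 4 group means was fitted to all 16 arrays with limma 3.58.1 in R 4.3.3 (lmFit and eBayes, two-sided, 12 residual and 6.19 prior degrees of freedom), with Benjamini-Hochberg adjustment across the whole table and calls at 0.05. Arrays of one group correlated at Pearson's r of at least 0.995 across genes. Precision is limited by the number of arrays, and p-values measure the spread between them. Scripts were tested on simulated data. The members and gene lists were chosen with earlier results of these data known. Modules follow one of several published assignments. Named in full were Med1 and Med15, members called in a TNFα response, up to 5 members of each module with the smallest adjusted p between genotypes, and from each other list 3 genes with the smallest adjusted p in untreated cells. Alternatives were median centring, quantile normalisation, leaving out genes below the median level (7.06), the mean of probe sets, trend and robust moderation, array weights, the methods' t-test, fits of only the arrays compared, another module assignment and leaving out each array.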

Additional observations from a re-analysis of the deposited data

Results flagged for a closer look

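In 7 of 132 pairs of a member and a group, 1 array lay apart from the other 3 by Dixon's test at the 95% level, and chance gives about 6.6 at 1 in 20. The ratios that follow are the gap to the nearest array over the range of the group. Cdk8 in SIMPL-/- untreated replicate 3 was low, at 10.18 beside 10.27 to 10.28 (ratio 0.965). Med26 in SIMPL-/- TNFα replicate 2 was low, at 7.75 beside 7.94 to 7.95 (ratio 0.915). Med22 in littermate TNFα replicate 4 was low, at 8.20 beside 8.36 to 8.38 (ratio 0.906). Med13 in littermate TNFα replicate 1 was low, at 9.99 beside 10.13 to 10.15 (ratio 0.905). Med24 in littermate TNFα replicate 3 was low, at 9.10 beside 9.18 to 9.20 (ratio 0.846). Med18 in littermate untreated replicate 3 was high, at 7.38 beside 7.15 to 7.17 (ratio 0.904). Med13l in littermate untreated replicate 2 was high, at 10.09 beside 9.97 to 9.99 (ratio 0.865). Of these, the call of Med13l in untreated cells and the call of Med24 with TNFα were lost without the array concerned (adjusted p = 0.0841 for Med13l and 0.119 for Med24).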

How the results depend on the processing

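Of 38 called member results, 27 kept their call under every setting that left out no array, 25 under every left-out array and 24 under all of these. All calls of Cdk8, Cdk19, Ccnc, Med12, Med14, Med15, Med18 and Med21 between the genotypes were among the 24. Med24 with TNFα kept its call in the fewest of the left-out arrays (4 of 16). For the TNFα response, in SIMPL-/- MEFs 1 member was higher, against 3 with dim genes left out, 2 with trend and robust moderation, 2 with array weights, 0 with the compared arrays alone, 0 with the methods' t-test and 0 to 1 with an array left out. In littermate MEFs the 1 higher member became 0 with arrays centred on their medians, with the compared arrays alone and with the methods' t-test, and 0 to 1 with an array left out, while the 1 lower member became 3 with dim genes left out and 0 to 2 with an array left out. For the difference between the responses, 1 member (Cdk8) was higher with dim genes left out or trend and robust moderation, and 0 to 1 with an array left out. Between untreated genotypes 3 to 5 members were lower with an array left out. The cause was not tested. With Med27 to Med30 and Med14 counted in the tail, the median response in SIMPL-/- MEFs became -0.04 in the head and 0.009 in the tail, the tail difference between responses 0.05 and the tail genotype difference with TNFα 0.161. The head difference between untreated genotypes was 0.182 after quantile normalisation. With an array left out, the head median ran from -0.04 to 0.046 for the SIMPL-/- response and from 0.108 to 0.181 between genotypes with TNFα, and the middle median of the difference between responses from -0.041 to 0.053. Signs reversed for Med15 in the littermate response (-0.012 to 0.072 with an array left out, negative without littermate TNFα replicate 4) and Med1 between untreated genotypes (0.028 after quantile normalisation, and -0.036 to 0.014 with an array left out, positive without littermate untreated replicate 2, at 0.003, or SIMPL-/- untreated replicate 3), all uncalled. Genotype calls lost with no array left out were, in untreated cells, those of Med9 and Med19 (centring, the methods' t-test), Med28 (quantile normalisation, the methods' t-test), Med12l (centring, quantile normalisation, trend and robust moderation) and Med10 and Med31 (the methods' t-test, adjusted p = 0.0516 and 0.0721), and with TNFα those of Med24 (centring, the methods' t-test, the compared arrays alone), Med26 (array weights, the methods' t-test, the compared arrays alone) and Med30 (the methods' t-test). Genotype calls gained with no array left out were, in untreated cells, those of Med6, Med8, Med11, Med20, Med22, Med7 and Med23, and with TNFα those of Med22, Med27, Med7, Med9, Med13 and Med4 (adjusted p 0.000639 to 0.0492). No paired analysis was possible because the labels carry no replicate numbers or embryo identifiers that link arrays across groups.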
